A study of Mus musculus with 6 samples.

Results

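The 10 genes described here encode the lysosomal cathepsins Ctsa, Ctsb, Ctsc, Ctsd, Ctsf, Ctsh, Ctsl, Ctss and Ctsz, together with Cst3, which encodes the secreted protease inhibitor cystatin C. They were taken by symbol, on the condition that the value was not 0, and all 10 met it, of 26562 symbols with a value other than 0 and 47593 in all. They were followed in primary hippocampal neurons from wild-type (WT) mice that received microglial apoE particles (n = 3 samples) or astrocytic apoE particles (n = 3 samples). Both groups had Neurobasal medium with B27 and GlutaMAX, and both received 6 µg/mL of particles on culture day 10 for 24 h before total RNA was sequenced. The apoE isoform carried by the particles is not stated, and untreated neurons are not analysed here, so each direction is microglial against astrocytic apoE. Nor is it stated whether samples of 1 group were separate cultures, so p-values measure the spread between these samples, which may be technical.

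Cathepsins are the proteases of the lysosome, where they degrade proteins delivered by endocytosis and autophagy. Most are cysteine proteases of the papain family (B, C, F, H, L, S and Z), whereas cathepsin D is an aspartic protease and cathepsin A a serine carboxypeptidase. Cystatin C is secreted, is abundant in cerebrospinal fluid, and blocks papain-type cysteine proteases but not cathepsin D. In the brain neurons rely on cathepsins B, D and L for protein turnover, microglia are rich in cathepsins S, Z, H and C, and astrocytes are a main source of cystatin C.

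The deposited values are on a log2 scale with weak genes drawn towards their mean, so differences of weak genes are understated, and so is their spread. Summed 2^values ran from 18060473 to 18337624 per library on this scale, which is no read count, so the depth is unknown. Of all 15055 genes tested, 13.0% were called higher and 11.8% lower with microglial apoE. All 10 neuron markers listed were tested, and 1 was called higher and 4 lower (median log2 fold change -0.019). Over the alternatives 2 to 4 of these markers were lower, 2 without astrocytic replicate 2. The most abundant was the microtubule protein gene Map2, at a log2 level of 14.53 with microglial and 14.63 with astrocytic apoE (log2 fold change -0.10 ± 0.027 SE, limma adjusted p = 0.00553, or 0.0508 without astrocytic replicate 2). Stmn2, of growing axons, was also lower (-0.13 ± 0.025 SE), Syt1, of synaptic vesicles, did not pass (0.04 ± 0.027 SE), and the marker called higher was Gad1, of GABA synthesis (0.25 ± 0.025 SE). Astrocyte transcripts were also abundant, the glutamate transporter gene Slc1a3 standing at 14.69 with microglial and 14.60 with astrocytic apoE. Defining microglial markers were near the floor of the scale: Tmem119 stood at 1.12 with microglial and 1.11 with astrocytic apoE, P2ry12 at 2.20 in both groups, and Siglech was listed at 0. Gad1, Tmem119 and P2ry12 were chosen after their values were seen.

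Neuron cultures that received microglial apoE had more transcript of the cathepsins Ctsl (25.2% higher) and Ctsd (20.4% higher), and smaller excesses of Ctsz (11.4%) and Ctss (4.5%). Cst3 was lower by 19.0%. The values are of bulk RNA that also held astrocyte transcripts, and no difference is assigned to a cell type. The other 5 genes, Ctsa, Ctsb, Ctsc, Ctsf and Ctsh, did not pass the test. In limma, 4 of the 10 genes were thus called higher and 1 lower at an adjusted p under 0.05, where 24.9% of all 15055 genes tested were called, 13.0% higher and 11.8% lower. All 10 genes passed the filter on low values. Among all called genes the share called higher was 52.4% as deposited and 34.8% to 65.6% under other scalings, and under each of those scalings 4 of the 10 genes were called higher and 1 lower. Over the 10 genes the median log2 fold change was 0.024 and the median size of a change 0.050, beside -0.00057 and 0.041 over all genes tested.

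**Figure D1:**
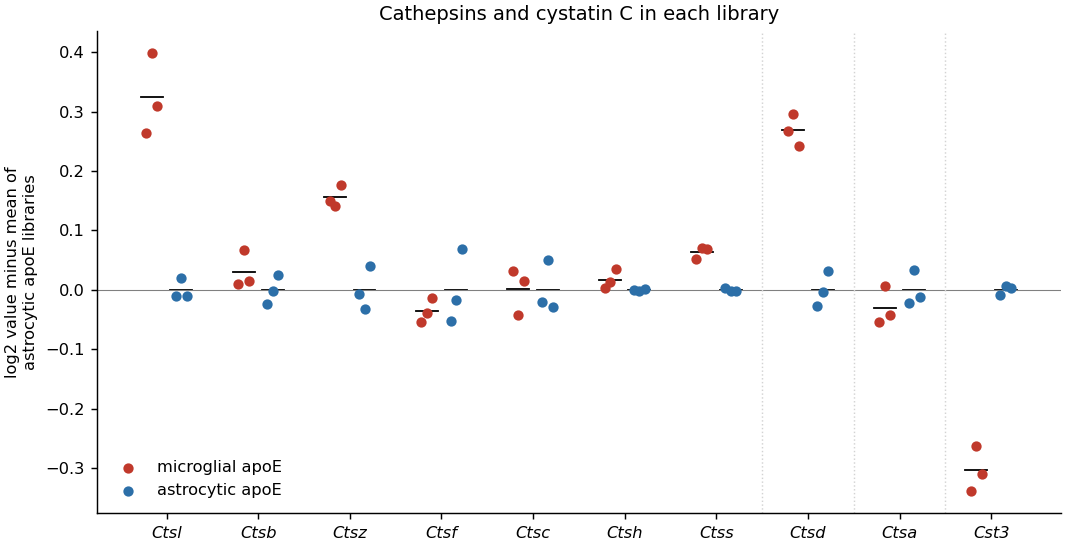
Log2 value of each gene in each library, minus the mean of the 3 astrocytic apoE libraries of that gene. Points are libraries, black bars are group means, and dotted lines part the cysteine cathepsins, Ctsd, Ctsa and Cst3. The microglial apoE libraries lie apart from the astrocytic ones for Ctsl, Ctsz, Ctss, Ctsd and Cst3, and by 0.0018 for Ctsh.

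Ctsl encodes cathepsin L, a cysteine endopeptidase of the lysosome (GRCm38 chromosome 13, 64359337 to 64370890, minus strand, protein-coding). Its log2 level was 11.79, 11.92 and 11.83 in the microglial apoE libraries, against 11.51, 11.54 and 11.51 in the astrocytic ones. The groups were 0.24 apart at their nearest values, and the microglial libraries differed more among themselves (SD 0.07) than the astrocytic ones (SD 0.02, n = 3 each). The log2 fold change was 0.32 ± 0.031 (SE), a 1.25-fold difference (limma adjusted p = 1.06e-08), and 98.3% of the genes tested had a smaller change in size.

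Ctsd encodes cathepsin D, the main aspartic protease of lysosomes (chromosome 7, 142375911 to 142388038, minus strand). It stood at 13.59, 13.62 and 13.57 with microglial apoE, against 13.30, 13.32 and 13.36 with astrocytic apoE. All 3 microglial libraries were higher, with a gap of 0.21 to the nearest astrocytic library. The level was 20.4% higher (log2 fold change 0.27 ± 0.026 SE, limma adjusted p = 1.8e-08). In GENCODE M21 its exons overlap those of Gm49369 on the same strand and those of Ctsl overlap Gm47123 on the other strand and the pseudogene Gm49230 on the same strand. Gm49369, Gm47123 and Gm49230 are not among the symbols of these data. The strand setting of the counting is not given, and it could not separate genes on the same strand. Ctsd and Ctsl are uncertain to that extent.

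Ctsz encodes cathepsin Z, a carboxypeptidase that trims proteins from the C-terminus (chromosome 2, 174427493 to 174439039, minus strand). Its log2 level was 8.86, 8.85 and 8.89 with microglial apoE, against 8.70, 8.68 and 8.75 with astrocytic apoE. The groups did not overlap, and the fold was 1.11 (log2 fold change 0.16 ± 0.031 SE, limma adjusted p = 0.000475). Its end lies 10 bases inside Nelfcd, a transcription elongation gene on the other strand, whose log2 fold change was -0.02 ± 0.030 SE.

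Ctss encodes cathepsin S, which cleaves the invariant chain of MHC class II in antigen-presenting cells and is induced by interferon in many cell types (chromosome 3, 95526786 to 95556403, plus strand). It was weakly expressed, at 4.761, 4.780 and 4.778 on the log2 scale with microglial apoE, against 4.712, 4.707 and 4.707 with astrocytic apoE. The 3 microglial libraries were higher and the groups did not overlap, with a log2 fold change of 0.06 ± 0.016 SE (limma adjusted p = 0.00478). The spread within groups was 0.0075, where counting alone would give 0.279 if 2^value were a count, so the SE and p of Ctss may be too small. With each library centred on its median the log2 fold change was 0.045 (adjusted p = 0.0499). Its companion in antigen processing, Cd74, the gene of the invariant chain, was higher by 0.16 ± 0.024 SE (adjusted p = 1.68e-05). Cd74 was weak too, at 5.62 with microglial and 5.47 with astrocytic apoE, so its SE and p may also be too small. With a filter of 50 on the 2^value scale it was not tested.

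Ctss, Ctsz, Ctsh and Ctsc are also genes of microglia, so markers of those cells were read in the same libraries. Of 23 markers of microglia and macrophages 22 had a value other than 0. Their summed 2^values were between 1285.3 and 1302.9 with microglial apoE and between 1236.6 and 1248.8 with astrocytic apoE. Of 15 tested, 2 were called higher and 0 lower (median log2 fold change 0.040), beside 13.0% and 11.8% of all genes tested. Over the alternatives 0 to 6 were called higher, 0 with each library centred on its median or without astrocytic replicate 1, and 6 with an equal sum of 2^value. Their part in the Ctss and Ctsz results was not tested, nor was it for Ctsl and Ctsd. In bulk RNA, more cells of a type and more RNA per cell cannot be told apart.

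Cst3, the cystatin C gene (chromosome 2, 148871722 to 148875692, minus strand), was the only one of the 10 called lower with microglial apoE. Its log2 level was 13.73, 13.81 and 13.76 in the microglial apoE libraries, against 14.06, 14.08 and 14.08 in the astrocytic ones. The groups were 0.25 apart at their nearest values, and the astrocytic libraries lay within an SD of 0.01 (n = 3). The log2 fold change was -0.30 ± 0.026 SE (1.23-fold lower, limma adjusted p = 1.49e-09), and 98.1% of the genes tested had a smaller change in size.

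Astrocyte markers moved in the direction of Cst3. Of 13 tested, of 14 listed, 10 were called lower and 1 higher, beside 11.8% and 13.0% of all genes tested. The median log2 fold change of these markers, microglial over astrocytic apoE, was -0.19. Their summed 2^values were between 65141 and 65774 with microglial apoE and between 76884 and 77911 with astrocytic apoE. The part of these markers in the Cst3 result was not tested. The marker called higher was Slc1a3 (log2 fold change 0.09 ± 0.024 SE). Among those called lower the largest change was that of Gfap, the intermediate filament of astrocytes, at a log2 level of 11.92 ± 0.02 with microglial and 13.00 ± 0.01 with astrocytic apoE (SD, n = 3; log2 fold change -1.08 ± 0.026 SE, limma adjusted p = 2.73e-21). Aldoc, a glycolytic enzyme (-0.56 ± 0.026 SE), the gap junction gene Gja1 (-0.44 ± 0.028 SE), the water channel gene Aqp4 (-0.41 ± 0.029 SE) and the lipid binding protein gene Fabp7 (-0.40 ± 0.026 SE) were also lower. Gfap, Aldoc and Gja1 were chosen after their values were seen.

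**Figure D2:**
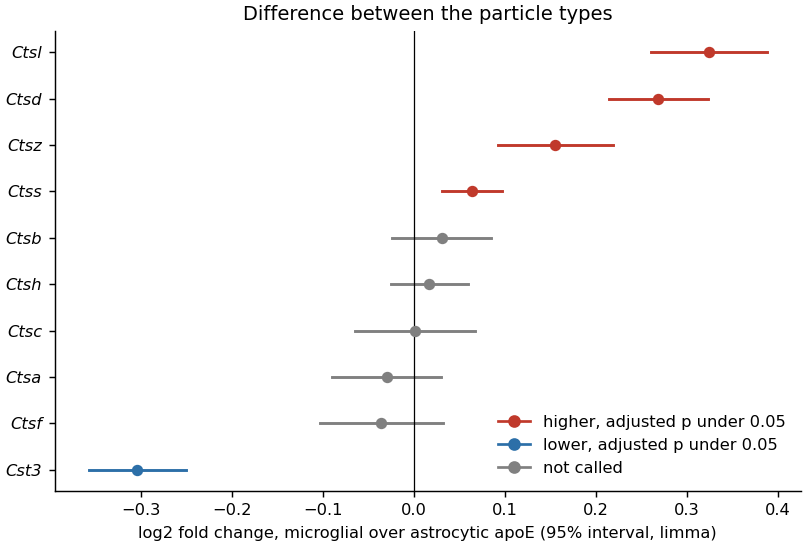
Log2 fold change of each gene, microglial over astrocytic apoE, with its 95% interval from limma. Ctsl, Ctsd, Ctsz and Ctss lie to the right of 0 and Cst3 to the left at -0.30, and the intervals of the other 5 genes cross 0.

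Ctsb encodes cathepsin B, a cysteine protease with endopeptidase and dipeptidyl carboxypeptidase activity (chromosome 14, 63122462 to 63145923, plus strand). Its log2 level was 13.24, 13.29 and 13.24 with microglial apoE, against 13.20, 13.23 and 13.25 with astrocytic apoE. The groups overlapped, and the log2 fold change of 0.03 did not pass (95% interval -0.02 to 0.09, limma adjusted p = 0.428). That interval does not reach the 0.32 of Ctsl. Its exons overlap those of the squalene synthase gene Fdft1 on the other strand (0.02 ± 0.031 SE).

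Ctsa encodes cathepsin A, the protective protein that holds beta-galactosidase and neuraminidase in the lysosome (chromosome 2, 164832873 to 164841032, plus strand). It stood at 10.33, 10.39 and 10.35 with microglial apoE, against 10.37, 10.42 and 10.38 with astrocytic apoE, and the groups overlapped. The log2 fold change was -0.03 (95% interval -0.09 to 0.03, limma adjusted p = 0.492). On the other strand it shares exon sequence with Pltp, which encodes the phospholipid transfer protein and was called higher (0.17 ± 0.036 SE, adjusted p = 0.000737). Whether reads of Pltp entered the Ctsa values was not tested.

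Ctsc encodes dipeptidyl peptidase I, which activates the serine proteases of immune cell granules (chromosome 7, 88278085 to 88310888, plus strand). Its 6 values lay between 9.18 and 9.28, with overlapping groups and a log2 fold change of 0.001 (95% interval -0.06 to 0.07, adjusted p = 0.982). Ctsf, the gene of the endopeptidase cathepsin F (chromosome 19, 4855130 to 4860918, plus strand), lay between 9.21 and 9.25 with microglial apoE and between 9.21 and 9.34 with astrocytic apoE. Its groups overlapped and its log2 fold change was -0.04 (95% interval -0.10 to 0.03, adjusted p = 0.461).

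Ctsh encodes cathepsin H, an aminopeptidase (chromosome 9, 90054152 to 90076089, plus strand). Its log2 level was low, 5.643, 5.654 and 5.675 with microglial apoE, against 5.641, 5.639 and 5.641 with astrocytic apoE. The microglial libraries were all above the astrocytic ones, by as little as 0.0018, and the gene did not pass (log2 fold change 0.02, 95% interval -0.03 to 0.06, adjusted p = 0.592). Groups did not overlap for 6 of the 10 genes, and for 38.9% of all genes tested.

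Differences between genes within a library do not depend on how libraries are scaled, and they are given as values without a test. Their shift between groups is the difference of the 2 fold changes given above, and is no separate evidence. Ctsl lay below Cst3 by a log2 difference of -1.95, -1.89 and -1.93 in the microglial apoE libraries, against -2.55, -2.54 and -2.56 in the astrocytic ones. The distance between protease and inhibitor transcript was smaller in all 3 microglial libraries, by 0.63 between group means. For Ctsd minus Cst3 the means were -0.18 ± 0.03 with microglial apoE and -0.75 ± 0.03 with astrocytic apoE (SD, n = 3). For Ctsb minus Cst3, with a Ctsb change that did not pass, they were -0.51 ± 0.01 with microglial apoE and -0.85 ± 0.02 with astrocytic apoE.

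The cathepsins also shifted against each other. Ctsl minus Ctsb averaged -1.41 ± 0.04 with microglial apoE and -1.71 ± 0.03 with astrocytic apoE (SD, n = 3), a shift of 0.29. Ctsl minus Ctsd averaged -1.75 ± 0.05 with microglial apoE and -1.80 ± 0.04 with astrocytic apoE, and the libraries of the groups overlapped. These differences carry gene length, which is the same in all libraries, and only their shifts between groups are compared.

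**Figure D3:**
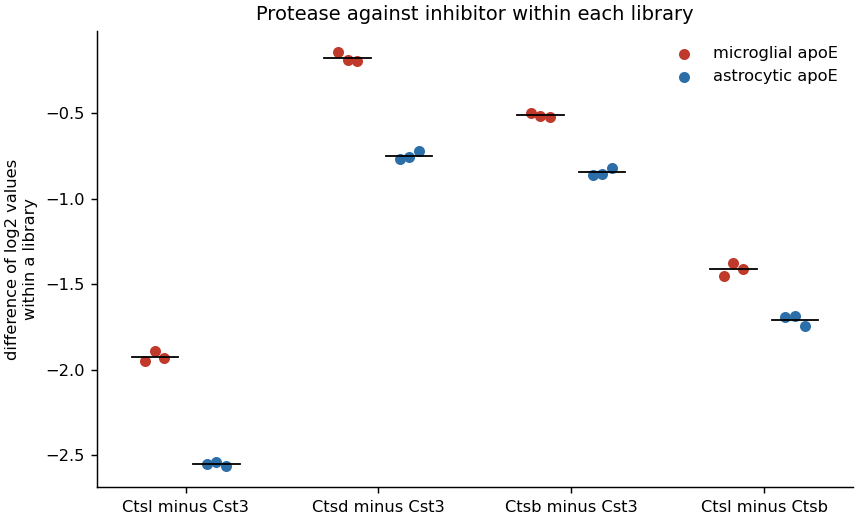
Difference of the log2 values of 2 genes within each library, for 3 proteases against Cst3 and for Ctsl against Ctsb. Points are libraries and black bars group means. In all 4 pairs the microglial apoE libraries lie above the astrocytic ones, by 0.63 for Ctsl minus Cst3 and by 0.33 for Ctsb minus Cst3. These shifts of the means follow from the fold changes of the 2 genes of each pair.

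Levels of different genes were compared per length, as 2^value per kilobase of the longest APPRIS principal transcript. Cst3 was the highest of the 10, at 16240 ± 434 with microglial apoE and 20040 ± 107 with astrocytic apoE (SD, n = 3), above 99.8% of the 13183 tested genes that have such a length. Ctsd followed at 5810 ± 109 with microglial and 4824 ± 99.7 with astrocytic apoE, and Ctsb at 2066 ± 44.7 with microglial and 2023 ± 33.7 with astrocytic apoE.

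Ctsl stood next at 597 ± 29 with microglial and 477 ± 5.9 with astrocytic apoE. Its principal transcripts run from 1971 to 6168 bases, and with the shortest its level was 1791 to 1966 per kilobase with microglial and 1481 to 1513 with astrocytic apoE, still below Ctsb. Ctsa, Ctsf, Ctsz and Ctsc followed, all between 233 and 376 per kilobase over the 6 libraries. Ctsf and Ctsz overlapped in that order, and with merged exon length Ctsz stood before Ctsa and Ctsf. Ctsh (31.2 ± 0.35 with microglial and 30.9 ± 0.02 with astrocytic apoE) and Ctss (20.2 ± 0.14 with microglial and 19.3 ± 0.04 with astrocytic apoE) were lowest, with Ctss above 12.4% of those 13183 genes. With merged exon length Ctsh (11.1 to 11.4 over the 6 libraries) was lowest and Ctss (19.2 to 20.2) stood above it in all of them.

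**Figure D4:**
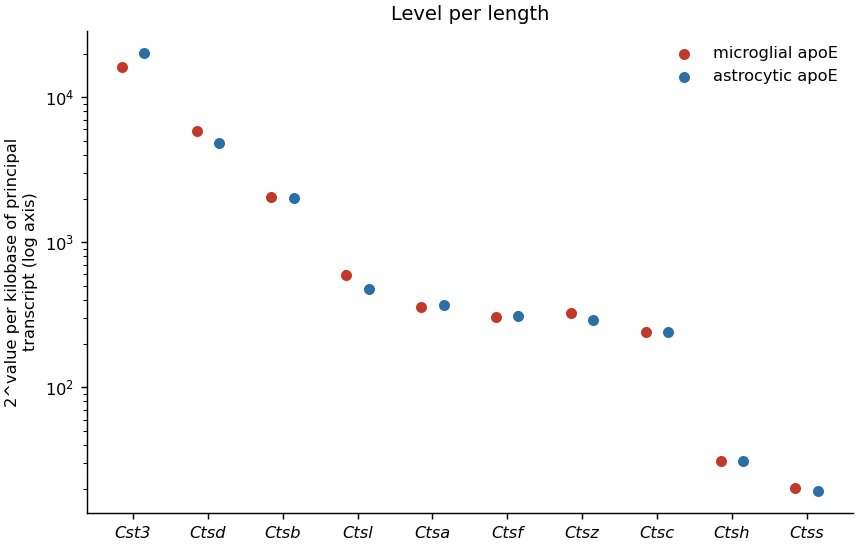
2^value per kilobase of the longest principal transcript, on a log axis, for each gene and group. Points are means of 3 libraries and vertical lines, mostly hidden by the points, the lowest and highest library. Cst3 is highest at 16240 with microglial and 20040 with astrocytic apoE, and Ctss lowest at 20.2 with microglial and 19.3 with astrocytic apoE.

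The promoters of the genes were read for short motifs. Lysosomal genes often carry a palindromic element bound by the MiT/TFE factors, of which TCACGTGA is the core and CACGTG, contained in it, the general E-box. The interferon-stimulated response element was searched in a short form, GAAA followed after any 2 bases by GAAA. Both strands of the RefSeq windows on GRCm38.p6, from 250 bases before to 50 after each start, were searched, and 8 of the 10 genes have an entry. The 250 bases before the start are shown for the called genes Ctsd, Ctsl and Ctss, for Cst3, and for Ctsa, which was not called, with motif matches in capitals.
Ctsd promoter, chr7:142387828-142388077, minus strand: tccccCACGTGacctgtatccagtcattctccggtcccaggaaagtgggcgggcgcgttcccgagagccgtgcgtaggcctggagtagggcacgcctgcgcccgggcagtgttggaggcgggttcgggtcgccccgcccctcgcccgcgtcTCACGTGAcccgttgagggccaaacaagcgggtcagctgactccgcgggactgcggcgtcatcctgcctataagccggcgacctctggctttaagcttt
Ctsl promoter, chr13:64370521-64370770, minus strand: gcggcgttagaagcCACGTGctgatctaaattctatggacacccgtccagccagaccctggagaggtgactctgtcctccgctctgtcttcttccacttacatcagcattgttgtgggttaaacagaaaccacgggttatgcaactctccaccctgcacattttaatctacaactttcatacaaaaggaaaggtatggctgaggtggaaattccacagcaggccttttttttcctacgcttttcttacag
Ctss promoter, chr3:95526536-95526785, plus strand: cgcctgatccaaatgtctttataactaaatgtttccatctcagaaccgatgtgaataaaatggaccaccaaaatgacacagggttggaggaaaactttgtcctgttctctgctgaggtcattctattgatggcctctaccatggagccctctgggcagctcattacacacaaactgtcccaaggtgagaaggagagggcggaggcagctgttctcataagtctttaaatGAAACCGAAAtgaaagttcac
Cst3 promoter, chr2:148875513-148875762, minus strand: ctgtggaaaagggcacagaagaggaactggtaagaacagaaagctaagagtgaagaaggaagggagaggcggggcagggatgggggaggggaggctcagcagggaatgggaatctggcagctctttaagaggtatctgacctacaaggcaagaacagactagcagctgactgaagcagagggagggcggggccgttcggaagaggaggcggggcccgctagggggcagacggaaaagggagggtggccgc
Ctsa promoter, chr2:164833523-164833772, plus strand: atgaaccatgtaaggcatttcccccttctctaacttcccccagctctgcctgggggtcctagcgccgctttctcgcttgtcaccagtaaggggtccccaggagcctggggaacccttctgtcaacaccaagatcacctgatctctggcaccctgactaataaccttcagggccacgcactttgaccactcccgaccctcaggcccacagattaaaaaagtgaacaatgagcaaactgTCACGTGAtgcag

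TCACGTGA was found in Ctsd, 99 to 92 bases before the start, and in Ctsa, 13 to 6 bases before its downstream start and again 5 to 12 bases after it. It occurs in 0.974% of all 32851 windows and in 1.12% of the 27025 genes that have a window. CACGTG alone was found in Ctsd a second time, at 245 to 240 bases. It was also found in Ctsl at 236 to 231 bases and in Ctsf at 79 to 74 bases. Of all windows 7.15% hold CACGTG, and of those genes 8.09%. The short interferon element was found only in Ctss among the 8, 21 to 12 bases before the start. It is held by 3.44% of windows and 3.99% of genes. The windows of Ctsz, Ctsc and Cst3 held none of these motifs. Nor did the window at the upstream start of Ctsa, just before the gene as GENCODE M21 draws it. Of the 4 genes with CACGTG, Ctsd and Ctsl were called higher and Ctsa and Ctsf were not called. The starts used for Ctsd, Ctsl, Ctsf and Cst3, and the downstream start of Ctsa, lie inside the gene as GENCODE M21 draws it. For Ctsl and for the downstream start of Ctsa all 250 bases shown lie inside the gene, and so do their matches. Starts without such a RefSeq window were not searched.

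Other cathepsins and cystatins were mostly listed at 0 or lay under the filter. Of 14 other cathepsin genes 10 were listed at 0, among them Ctse and the placental genes such as Ctsj and Ctsm. The single one tested was Ctso, a papain-family cathepsin, which was called lower (log2 8.73 ± 0.05 with microglial and 8.85 ± 0.02 with astrocytic apoE, SD, n = 3; log2 fold change -0.12, limma adjusted p = 0.00659). Without microglial replicate 1 that call was lost (-0.09, adjusted p = 0.0669). Of 19 other cystatin genes the single one tested was Cstb, which encodes the cytosolic inhibitor stefin B. It was called higher, at 9.75 ± 0.03 with microglial and 9.61 ± 0.04 with astrocytic apoE (log2 fold change 0.13, adjusted p = 0.00158), opposite in sign to Cst3.

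Among 6 other lysosomal peptidases tested, of 7 listed, 3 were called higher and 1 lower (median log2 fold change 0.048). Over all genes tested the shares were 13.0% higher and 11.8% lower. Scpep1, a serine carboxypeptidase related to cathepsin A, was higher by 0.29 ± 0.029 SE and Tpp1, the tripeptidyl peptidase lost in a form of neuronal ceroid lipofuscinosis, by 0.15 ± 0.027 SE. Dpp7 was higher by 0.10 ± 0.032 SE (adjusted p = 0.0206), and missed the threshold when astrocytic replicate 2 (adjusted p = 0.163), microglial replicate 2 (0.0878) or microglial replicate 3 (0.0539) was left out. Cpq was lower (-0.08 ± 0.028 SE, adjusted p = 0.0323), a call lost on leaving out any library but astrocytic replicate 3 (adjusted p = 0.0683 to 0.12).

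Of 10 tested genes that carry enzymes to the lysosome, 1 was called higher and 2 lower, near the 24.9% called over all genes, with a median of 0.045. With an equal sum of 2^value the balance was the other way, with 4 called higher and 1 lower. Scarb2, the receptor that brings glucocerebrosidase to lysosomes, was higher (0.18 ± 0.027 SE), and Gnptab, which builds the mannose 6-phosphate tag, was lower (-0.11 ± 0.028 SE). The sorting receptor Sort1 was lower (-0.09 ± 0.028 SE, adjusted p = 0.0271), which missed the threshold on leaving out microglial replicate 1 (0.0564) or 2 (0.106) or astrocytic replicate 1 (0.0915) or 2 (0.142), and with the replicate number as a block (0.0518). The cation-dependent mannose 6-phosphate receptor M6pr stood at 0.07 ± 0.028 SE (adjusted p = 0.0725).

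Where 13.0% of all genes tested were called higher, 3 of 6 partners and substrates of cathepsins were, and 0 lower (median 0.10). They were progranulin (Grn, 0.27 ± 0.031 SE), which cathepsins cleave into granulins, prosaposin (Psap, 0.14 ± 0.028 SE), which cathepsin D processes, and Cd74. Neu1, the neuraminidase held by cathepsin A, did not pass (0.06 ± 0.030 SE, adjusted p = 0.139). Among 4 tested MiT/TFE genes and their repressor, Tfe3 was called higher (0.15 ± 0.029 SE, adjusted p = 0.000243), whereas Tfeb (-0.02 ± 0.031 SE), Mitf (0.03 ± 0.020 SE) and the repressor Zkscan3 (-0.02 ± 0.029 SE) did not pass.

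Of 24 other lysosomal hydrolases and membrane proteins 9 were called higher and 2 lower (4 lower with median centring). Over all genes tested 13.0% were called higher and 11.8% lower. The list had a median of 0.030. Asah1, the acid ceramidase (0.23 ± 0.028 SE), Gaa, the acid alpha-glucosidase (0.16 ± 0.029 SE), and Npc2, a cholesterol carrier of the lysosome (0.15 ± 0.029 SE), were higher. Galc, which degrades galactosylceramide, was lower (-0.20 ± 0.028 SE). In size, all 24 lay below Ctsl, Ctsd and Cst3.

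**Figure D5:**
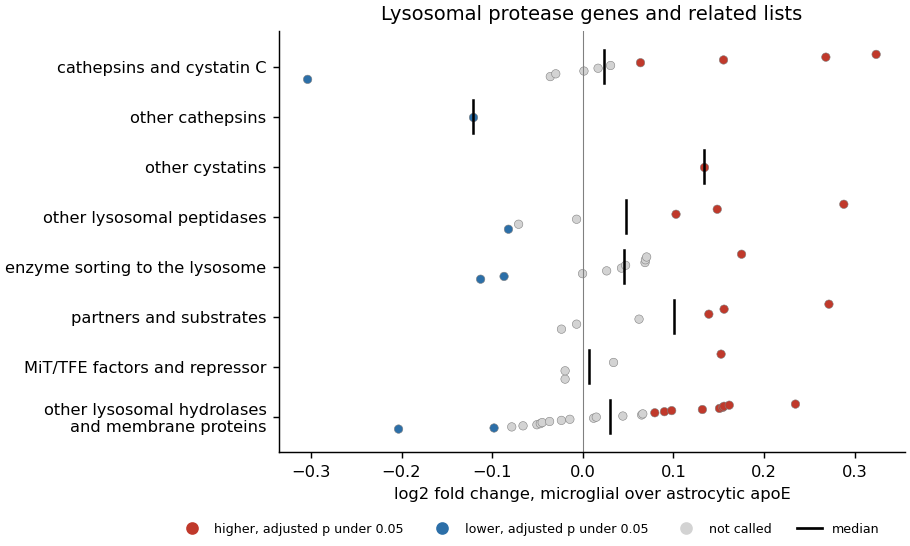
Log2 fold change, microglial over astrocytic apoE, of the tested genes of the cathepsins and cystatin C and of 7 pathway lists, without the cell type markers. Each point is a gene, coloured by its call, and black bars are list medians. Ctsl (0.32), Scpep1 (0.29), Grn (0.27) and Ctsd (0.27) lie farthest to the right of the genes plotted, and Cst3 (-0.30) farthest to the left.

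The genes most alike in pattern were taken by the root-mean-square difference between gene-centred log2 values over the 6 libraries. Nearest to Ctsl were the stress transcription factor Atf3 (difference 0.026, log2 fold change 0.36), Plscr2, a phospholipid scramblase (0.028, 0.36), and Cpeb1, which regulates translation at synapses (0.028, 0.33). Nearest to Ctsd were Phgdh, the first enzyme of serine synthesis (0.0033, 0.26), the glucose transporter gene Slc2a1 (0.012, 0.26) and the interferon regulatory factor Irf1 (0.016, 0.24). Nearest to Cst3 were C1qtnf6 (0.014, -0.32), the astrocyte-secreted Chil1 (0.018, -0.31) and the lipid phosphatase Plpp3 (0.021, -0.33). This measure includes the difference between the groups, so genes with a like group difference stand near each other by construction.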

How the data were processed

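Gene expression was measured by RNA-seq of neurons treated with microglial or astrocytic apoE particles (3 samples each, grouped by the treatment recorded in the labels). The authors deposited a single log2 value per gene symbol and sample, in files without a header. Per the submitters' processing notes, the tools included HISAT2, featureCounts, DESeq2 and FastQC with the build GRCm38. Their roles and versions, the annotation and the strand setting are not given in the sources used. The same 21031 symbols stand at 0 in all 6 libraries and weak genes are drawn to their mean, as a regularized logarithm does. That transformation is inferred from the values. Depth per sample is unknown.

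The log2 values were compared with limma 3.58.1 (trend and robust options) in R 4.3.3, for the 15055 genes with a 2^value of 10 or more in at least 3 libraries. Calls are at an adjusted p under 0.05 (Benjamini-Hochberg, all of these genes), and 95% intervals are those of limma. Errors of fold changes are moderated SEs and errors of levels are SDs. The procedure was tested on simulated data. The genes, lists and rules were chosen with earlier results of these data known. All 10 genes are named, with up to 4 genes of smallest p per pathway list, the 3 most abundant of the astrocyte and neuron markers, markers listed at 0 and the 3 genes most alike in pattern to Ctsl, Ctsd and Cst3. Positions and lengths are from GENCODE M21 (GRCm38, 1-based), and promoter windows from RefSeq (GRCm38.p6). A planned comparison of the proteins was not made. Alternatives were another filter, other scalings, a replicate block, limma without its options, and each library left out. Figures were drawn in Python 3.11.15 with matplotlib 3.10.9.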

Additional observations from a re-analysis of the deposited data

How the results depend on the processing

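Under the 13 alternatives the calls of Ctsl (log2 fold change 0.29 to 0.35), Ctsd (0.25 to 0.28), Ctsz (0.14 to 0.18) and Cst3 (-0.32 to -0.29) held with their direction. Ctss held in the 12 alternatives that tested it (0.045 to 0.077, adjusted p = 0.0011 to 0.0499). With a filter of 50 on the 2^value scale, Ctss, Ctsh and Cd74 were not tested. Ctsa, Ctsb, Ctsc, Ctsf and Ctsh passed in none that tested them. With median centring, Ctsc (-0.017) and Ctsh (-0.0014) changed sign and genes called lower over all tested numbered 2765 against 1780. Ctsc also changed sign with the sum of 2^value made equal without mitochondrial genes (-0.0089) and on leaving out any of 4 libraries (-0.014 to 0.027 over the 6 libraries left out in turn), and Tfeb without microglial replicate 3 (0.00017, the others down to -0.052). The cause was not tested. The share of higher calls was 52.4% as deposited, 34.8% with median centring, 65.6% with an equal sum of 2^value and 41.7% with that sum without mitochondrial genes. No filter on low values tested 26562 genes. Of the other lysosomal peptidases 0 to 2 were called lower over the alternatives, against 1. Leaving out single libraries gave 1 or 2 sorting genes called higher, 1 or 2 called lower, and 1 other lysosomal hydrolase called lower without microglial or astrocytic replicate 2, against 2. Leaving out each library in turn gave 2556 to 4541 called genes over all tested, against 3742, and 5 of the 10 genes each time.

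Same-numbered samples did not deviate together (correlations of deviations 0.039, -0.12 and -0.19), so the numbers were not taken to pair them. With a replicate block 3387 genes were called, and 5 of the 10 genes, 4 higher and 1 lower. Of the other named genes, Sort1 lost its call there (adjusted p = 0.0518). Sort1 (0.0657) and Cpq (0.0752) also lost theirs and M6pr passed (0.0338) with an equal sum of 2^value. Dpp7 lost its call with median centring (0.0501) and Cpq with no filter on low values (0.0508), and M6pr passed without the trend and robust options of limma (0.0456).

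Unknown depth and the transformation limit what Ctss and Ctsh can show: their spread within groups (0.0075 and 0.011) lies far under that of counting (0.279 and 0.204) if 2^value were a count.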
